A study of Mus musculus with 6 samples.

Results

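NF-kB is a family of dimeric transcription factors, and this account follows 10 of its genes in cultured mouse sensory neurons given oncomodulin (ONCM). The members are the 5 subunit genes Nfkb1, Nfkb2, Rel, Rela and Relb and the 5 feedback regulator genes Nfkbia, Nfkbiz, Tnfaip3, Bcl3 and Birc3. They were picked by gene symbol, and all 10 were found among the 45777 genes of the deposited table and kept among the 20354 genes tested. Bulk RNA sequencing covered 6 libraries of dorsal root ganglion neurons cultured from wild-type C57BL/6 mice, 8 weeks of age and female by the labels. Recombinant ONCM, a calcium-binding protein of the parvalbumin family, was given to 3 of them (100 ng/ml, 12 hours), and PBS as the negative control to the other 3. The libraries are called biological replicates, but no separate cultures or animals are named, so each p-value reflects only how much these libraries differ among themselves, which may be technical.

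In resting cells NF-kB dimers are held in the cytoplasm by IkB proteins, which mask their nuclear import signals. Cytokine and Toll-like receptors activate the IkB kinase complex, IkB is degraded, and the freed dimers switch on chemokine, cytokine and survival genes together with genes that end the signal. In peripheral ganglia the pathway is known from neurons, glia and resident macrophages alike, where it takes part in inflammatory pain and in the response to nerve injury.

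Library totals ran from 53770820 to 64477014 counts, and each member had between 791 and 6018 counts in a library. Values are CPM (counts scaled by library size and TMM), and a gene is said to have risen or fallen where edgeR's quasi-likelihood test gave a Benjamini-Hochberg adjusted p under 0.05. Of all tested genes 48.3% passed, 23.9% higher and 24.4% lower with ONCM, and 49.5% of these calls were higher. On the log2(TPM + 1) scale, with limma, 34.9% passed, 13.3% higher and 21.6% lower, so that 38.1% of the calls were higher. Although all libraries are labelled female, sex-linked transcripts separated the groups: Xist stood at 413 to 513 CPM in the ONCM libraries and at 0.485 to 0.588 CPM in the PBS libraries, and the Y-linked Ddx3y at 15.1 to 16.9 CPM with ONCM and 58.1 to 62.4 CPM with PBS. Ddx3y, being Y-linked, was present in every library, so the female label is not borne out in either group. Because these transcripts differed between the groups, treatment and a difference in the source cells cannot be told apart for any gene below. Sensory neuron markers were abundant in both groups, at 18255 to 19330 CPM summed over 12 genes with ONCM and 20352 to 20989 CPM with PBS. Of these markers 8 fell, 2 rose and 2 did not pass, with a median log2 fold change of -0.46, and their part in the results below was not tested.

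All 10 members rose with ONCM, by 1.14-fold (Rela) to 1.81-fold (Nfkbiz). In each member the 3 ONCM libraries lay above the 3 PBS libraries, which held for 27.6% of all tested genes, while 28.0% had every ONCM library below and 55.6% did not overlap in either direction. The median log2 fold change was 0.56 over the members and -0.0021 over all tested genes. The 5 feedback regulators had a median of 0.75 and the 5 subunits a median of 0.35. By fold change the members stood between the 71.9th and the 92.1st percentile of the tested genes, and the highest of them, Nfkbiz, ranked 1609 from the top. In bulk RNA, more cells of a type and more RNA per cell cannot be told apart. Macrophage markers moved in the same direction: 16 of 17 rose, their sum was 200 to 209 CPM with ONCM and 57.9 to 62.9 CPM with PBS, and none was at 0 in all libraries. The part of macrophages in the rise of the members was not tested.

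**Figure D1:**
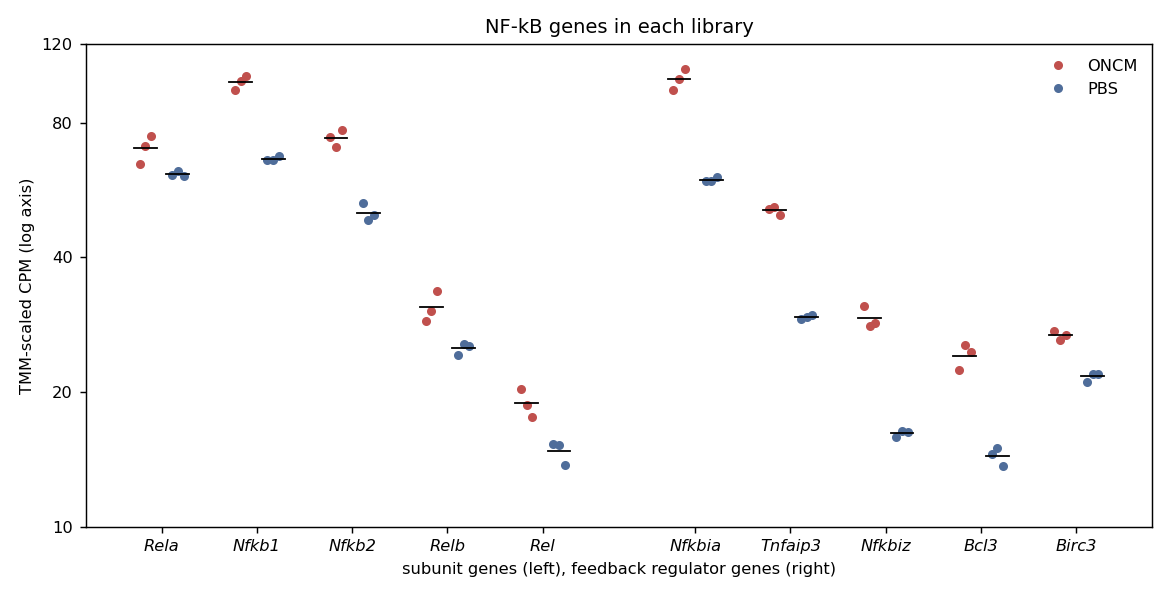
TMM-scaled CPM (log axis) of the 10 NF-kB genes, with 1 point per library and a bar at the mean of 3 libraries; ONCM stands left of PBS for each gene. In every gene the ONCM points lie above the PBS points, with the narrowest gap for Rela (64.6 CPM in the lowest ONCM library and 62.4 CPM in the highest PBS library).

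Nfkbia encodes IkB-alpha, the inhibitor that NF-kB itself induces and that carries dimers back out of the nucleus. It had 94.9, 100.2 and 105.6 CPM with ONCM, against 59.2, 59.4 and 60.6 CPM with PBS. The groups were far apart compared with their spread, with means of 100.3 ± 5.38 CPM with ONCM and 59.7 ± 0.754 CPM with PBS (SD, n = 3 each). The log2 fold change was 0.75 (edgeR SE 0.04, adjusted p = 2.28e-11), or 1.68-fold.

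Tnfaip3 encodes a ubiquitin-editing enzyme that shuts off signalling between the receptors and the IkB kinases. It had 51.2, 51.9 and 49.8 CPM with ONCM, against 29.1, 29.4 and 29.8 CPM with PBS. The gap was many times the spread within either group, and this gene had the smallest p of the members. The log2 fold change was 0.79 (edgeR SE 0.04, adjusted p = 1.43e-11).

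Nfkbiz encodes IkB-zeta, a nuclear IkB protein that helps NF-kB switch on secondary genes such as Il6 and Lcn2. It had 31.1, 28.2 and 28.6 CPM with ONCM, against 15.9, 16.4 and 16.3 CPM with PBS. Its log2 fold change of 0.86 (edgeR SE 0.05, adjusted p = 2.79e-10) was the highest of the members.

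Bcl3 encodes another nuclear IkB protein, which binds homodimers of the Nfkb1 and Nfkb2 products on DNA. It had 22.4, 25.5 and 24.5 CPM with ONCM, against 14.5, 15.0 and 13.7 CPM with PBS. The log2 fold change was 0.75 (edgeR SE 0.06, adjusted p = 1.04e-08). Its span overlaps the antisense genes Gm16174 and Gm16175. Gm16174 had 0.423 CPM on average with ONCM and 0.335 CPM with PBS, and Gm16175 was not checked. The strand setting of the counting is not given in the sources used here.

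Birc3 encodes a cellular inhibitor of apoptosis, a ubiquitin ligase in the TNF receptor complex, and had the smallest fold change of the 5 regulators. It had 27.4, 26.2 and 26.8 CPM with ONCM, against 21.1, 22.01 and 21.99 CPM with PBS. The log2 fold change was 0.31 (edgeR SE 0.05, adjusted p = 4.74e-05), and on log2(TPM + 1) it was 0.23 and did not pass (limma adjusted p = 0.0722). Its neighbour and close relative Birc2 had a log2 fold change of 0.17 (edgeR SE 0.04, adjusted p = 0.00506) and was named after its value was seen. The Birc2 call was lost on log2(TPM + 1).

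The start-site regions of these genes are shown because several feedback regulators are classical NF-kB targets in the mouse. RefSeq windows from 250 bases before to 50 bases after a start site (GRCm38.p6) were at hand for 7 members: Nfkb2, Rel, Rela, Nfkbia, Tnfaip3, Bcl3 and Birc3. Both strands were searched for the 10-base kappaB consensus, and matches can overlap. The consensus reads GGG, A or G, any base, A or T, C or T, C or T, then CC. It occurred in 7 of the 10 windows of these genes, against 4.51% of all 32851 windows. By gene it occurred in a window of 5 of the 7, against 6.15% of the 14831 tested genes with a window. A match describes the letters only and does not show binding. The 250 bases before the Nfkbia start site, at chr12:55492648-55492897 on the minus strand, held 1 match from position -29 to -20 relative to the start site, in capitals:
Nfkbia: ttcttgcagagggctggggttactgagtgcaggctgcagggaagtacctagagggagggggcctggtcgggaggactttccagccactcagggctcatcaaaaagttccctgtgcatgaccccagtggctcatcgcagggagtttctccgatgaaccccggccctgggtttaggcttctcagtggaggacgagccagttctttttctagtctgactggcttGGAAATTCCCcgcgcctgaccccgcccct

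Stretches of 50 bases around matches of the other genes, 5′ to 3′ on the strand of the gene and with matched bases in capitals, let the sites be compared. They lie at chr10:19015393-19015442 (minus strand) and chr10:19015506-19015555 (minus strand) for Tnfaip3, chr7:19822736-19822785 (minus strand) for Bcl3, chr19:46304692-46304741 (plus strand) for Nfkb2 and chr11:23771031-23771080 (minus strand) for Rel.
Tnfaip3, site at -12: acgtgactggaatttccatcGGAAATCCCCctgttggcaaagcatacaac
Tnfaip3, site at -125: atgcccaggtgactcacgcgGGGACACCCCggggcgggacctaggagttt
Bcl3, site at 3: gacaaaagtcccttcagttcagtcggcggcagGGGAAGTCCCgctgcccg
Nfkb2, sites at -39 and -11: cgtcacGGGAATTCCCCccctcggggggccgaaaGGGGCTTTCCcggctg
Rel, site at -92: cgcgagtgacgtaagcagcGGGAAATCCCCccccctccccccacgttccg

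For Nfkb2 the stretch of the first of its start sites is shown. The matches in its windows further downstream, at -236 and 11 and at -225 from their own start sites, are not printed. These downstream windows overlap, and the matches at 11 and at -225 are the same bases. The runs of 11 capitals in Nfkb2 and Rel are overlapping matches on both strands. The windows of Rela and Birc3 and a further window of Tnfaip3 held no match, which says only that these letters are not in those windows. The 5 genes with a match had log2 fold changes of 0.35 to 0.79, and Rela and Birc3 had 0.19 and 0.31. With 7 genes this is a description, and the part of these sites in the fold changes was not tested.

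Among the subunits, the precursors had the highest fold changes. Nfkb1, whose long product is processed to a DNA-binding subunit without a transactivation domain, had 94.9, 99.2 and 101.6 CPM with ONCM, against 66.1, 66.0 and 67.5 CPM with PBS. Its log2 fold change was 0.57 (edgeR SE 0.04, adjusted p = 2.63e-10). The span of Nfkb1 overlaps Gm43430 on the same strand, which was not checked. Nfkb2, the precursor of the non-canonical pathway, had 74.4, 70.6 and 77.2 CPM with ONCM, against 52.8, 48.6 and 49.7 CPM with PBS. The log2 fold change was 0.56 (edgeR SE 0.04, adjusted p = 4.05e-09), so the precursors rose by nearly the same factor. The 3′ end of Nfkb2 overlaps Psd on the opposite strand, and Psd had a log2 fold change of -0.04 (edgeR SE 0.09, adjusted p = 0.744). The noncoding gene AC114539.1, also on the opposite strand, overlaps Nfkb2 too and was not checked.

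The subunits with a transactivation domain had smaller fold changes, a difference between genes that was not tested. Rel, the subunit best known from lymphocytes and macrophages, had 20.3, 18.7 and 17.6 CPM with ONCM, against 15.3, 15.2 and 13.8 CPM with PBS. Its log2 fold change was 0.35 (edgeR SE 0.07, adjusted p = 2.18e-04). Relb, the usual partner of the processed Nfkb2 product, had 28.9, 30.3 and 33.6 CPM with ONCM, against 24.2, 25.6 and 25.3 CPM with PBS, a log2 fold change of 0.31 (edgeR SE 0.06, adjusted p = 1.79e-04). On log2(TPM + 1) the Relb difference was 0.23 and did not pass (limma adjusted p = 0.0718).

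Rela encodes the transactivating subunit of the classical dimer, which is regulated mainly by its location in the cell. It had 64.6, 71.2 and 74.7 CPM with ONCM, against 61.2, 62.4 and 60.8 CPM with PBS. The ONCM libraries spread more widely than the PBS libraries, with SDs of 5.14 and 0.856 CPM, and the lowest ONCM library lay just above the highest PBS library. The log2 fold change was 0.19 (edgeR SE 0.05, adjusted p = 0.0018), the lowest of the members. On the TPM scale the groups overlapped, with 60.5 to 67.8 TPM with ONCM and 58.7 to 60.7 TPM with PBS, and the difference of 0.12 on log2(TPM + 1) did not pass (limma adjusted p = 0.385).

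**Figure D2:**
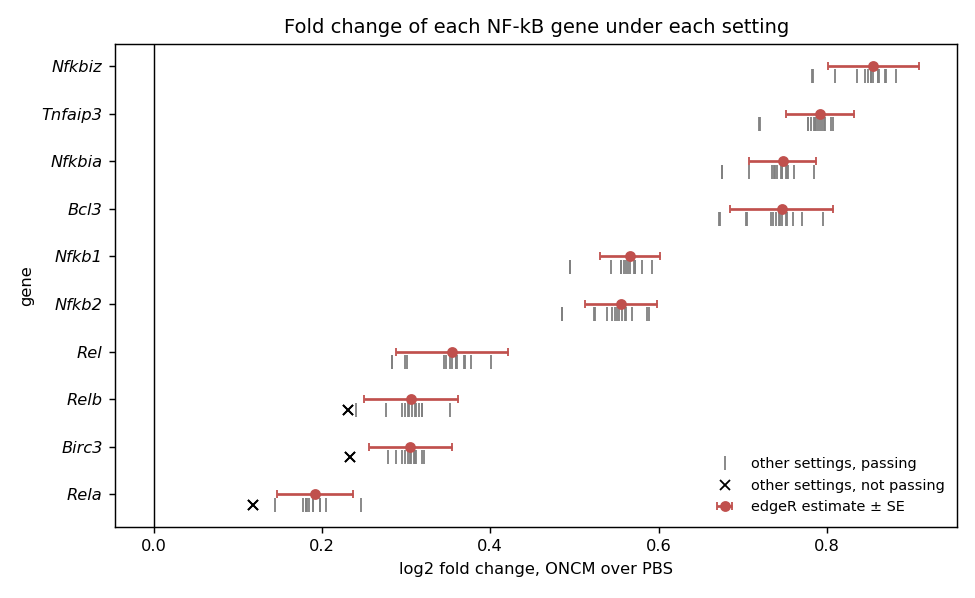
log2 fold change (ONCM over PBS) of each NF-kB gene; red points with bars are edgeR estimates ± SE, grey ticks are other settings in which the gene passed, and crosses are settings in which it did not. No setting gave a value below 0, and the crosses (limma on TPM) belong to Relb, Birc3 and Rela.

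TPM values, which account for gene length, allow levels to be set against each other. Nfkbia was the highest of the members in both groups, at 154.3 ± 6.94 TPM with ONCM and 95.9 ± 0.642 TPM with PBS (SD, n = 3 each). With ONCM, Rela followed at 64.96 TPM, then Nfkb1 at 58.6, Nfkb2 at 52.0, Relb at 34.1, Bcl3 at 32.2, Tnfaip3 at 28.1, Birc3 at 21.7, Nfkbiz at 18.2 and Rel at 6.15 TPM. In that order the ranges of Rela and Nfkb1 overlapped, as did those of Relb and Bcl3. With PBS no neighbouring members overlapped, and the order was the same but for Birc3, at 17.9 TPM, which stood just above Tnfaip3, at 16.9 TPM.

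Within the summed subunit transcripts, Rela made up less and the precursors more in the ONCM libraries. Summed subunit TPM was 208.3, 214.1 and 225.0 with ONCM, against 173.9, 165.3 and 166.4 with PBS. Rela made up 29.0%, 31.1% and 30.1% of that sum with ONCM, against 34.6%, 36.7% and 35.2% with PBS. Nfkb1 made up 26.6%, 27.3% and 27.5% with ONCM, against 24.8%, 24.2% and 24.6% with PBS. Nfkb2 made up 25.8%, 22.9% and 23.7% with ONCM, against 21.5%, 18.2% and 20.1% with PBS. These 3 shares did not overlap between the groups, while those of Relb (15.3% to 16.2% with ONCM, 16.1% to 17.7% with PBS) and Rel (2.51% to 3.19% with ONCM, 2.79% to 3.12% with PBS) did. The Rel share differed by -0.115 percentage points, and by 0.0595 percentage points without ONCM replicate 3.

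The ratio of Nfkb1 to Rela was 0.902 ± 0.021 with ONCM and 0.692 ± 0.0289 with PBS, and that of Nfkb2 to Relb was 1.53 ± 0.132 with ONCM and 1.17 ± 0.153 with PBS (SD, n = 3 each). Transcripts of the inhibitor were also higher relative to those of the subunits: Nfkbia TPM was 0.704, 0.728 and 0.713 times the summed subunit TPM with ONCM, against 0.551, 0.577 and 0.581 times with PBS. Over 11 such shares, sums and ratios, a two-sided exact permutation test gave p = 0.1 for the 8 that did not overlap, the smallest p that 3 against 3 allows, and an adjusted p = 0.138. With 3 libraries a group, this test cannot go under 0.05 whatever the size of a difference.

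**Figure D3:**
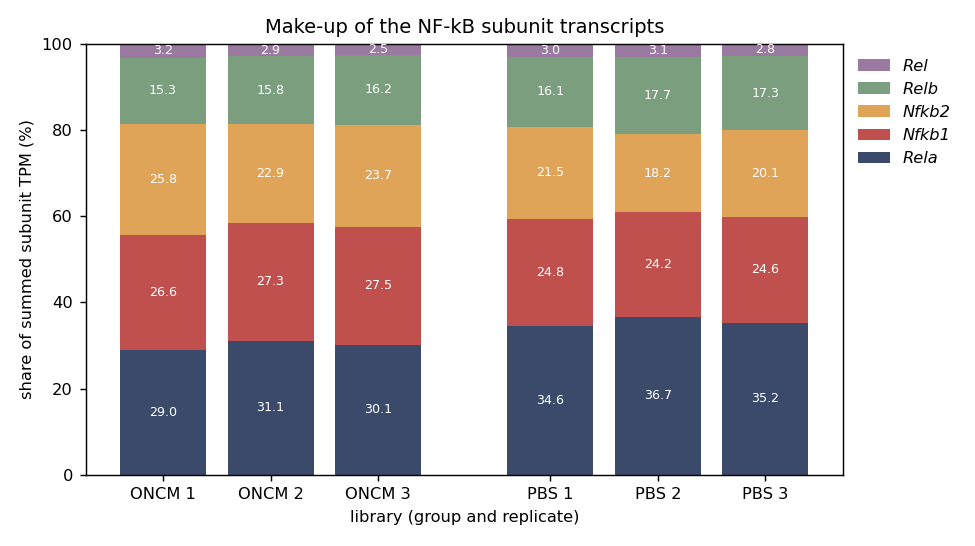
Share (%) of each subunit gene in the summed TPM of the 5 NF-kB subunit genes, 1 bar per library, with ONCM bars left of PBS bars. The Rela share is 29.0% to 31.1% in ONCM libraries and 34.6% to 36.7% in PBS libraries.

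The members were set among other genes of the pathway, listed by role and chosen with earlier results of these data known. Over all tested genes 23.9% rose and 24.4% fell. Of the ligand genes, 8 of 10 were tested, and 2 rose, 0 fell and 6 did not pass, with a median log2 fold change of 0.02. Tnf, the classical NF-kB-activating cytokine, had 6.92, 8.06 and 7.93 CPM with ONCM, against 3.42, 3.50 and 3.98 CPM with PBS (log2 fold change 1.07, SE 0.10, edgeR adjusted p = 5.45e-08). Il1a, an interleukin 1 cytokine, was low but 2.12-fold higher with ONCM, and Tnfsf12, the ligand of Tnfrsf12a, had a log2 fold change of 0.09 (edgeR SE 0.08, adjusted p = 0.424). Summed over the list, ligand transcripts stood at 22.9 to 24.3 CPM with ONCM and 18.4 to 19.1 CPM with PBS. Most of that difference was Tnf, which averaged 7.64 CPM with ONCM and 3.63 CPM with PBS. Il1b, named after its value was seen, did not pass (log2 fold change 0.09, SE 0.24, edgeR adjusted p = 0.795).

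Receptor genes rose in 8 of 12 cases, fell in 2 and did not pass in 2, with a median of 0.33. Tnfrsf1b, a TNF receptor, had 62.2, 63.4 and 65.9 CPM with ONCM, against 27.2, 25.6 and 27.8 CPM with PBS, a rise of 2.37-fold. Cd40, a receptor of the TNF family that also feeds the non-canonical pathway, rose 3.07-fold, and Tlr3, the receptor for double-stranded RNA, rose 2.79-fold. The genes that fell, named after their values were seen, were Tnfrsf11a (log2 fold change -0.39, SE 0.08) and Tnfrsf13c (-1.62, SE 0.58). Tnfrsf13c had 11, 0 and 15 counts with ONCM, against 35, 30 and 21 counts with PBS. Its call was lost with DESeq2 and with the replicate block (-1.71). It was also lost without ONCM replicate 1 (-1.86), ONCM replicate 2 (-1.02), PBS replicate 1 (-1.53) or PBS replicate 2 (-1.55).

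Adaptors and kinases went both ways, with 10 raised, 7 lowered and 9 not passing of 26, a median of 0.01. On log2(TPM + 1) only 9 passed, 4 higher and 5 lower, and 34.9% of all tested genes passed on that scale. Myd88, the adaptor of Toll-like and interleukin 1 receptors, rose 1.58-fold to 29.7 ± 0.728 CPM with ONCM, against 18.8 ± 0.746 CPM with PBS. Traf1, itself a known NF-kB target, rose 1.86-fold, and Tab3, a partner of the kinase Map3k7, had a log2 fold change of -0.49 (edgeR SE 0.04, adjusted p = 2.77e-08). The IkB kinase complex, singled out after the values were seen, gave differences near 0: Chuk had a log2 fold change of 0.08 (edgeR SE 0.04, adjusted p = 0.174), Ikbkb -0.01 (SE 0.04, adjusted p = 0.929) and Ikbkg -0.06 (SE 0.04, adjusted p = 0.229). Map3k14, the kinase that starts the non-canonical pathway, had -0.13 (edgeR SE 0.08, adjusted p = 0.179). Without ONCM replicate 3, Chuk (0.11) and Map3k14 (-0.21) passed.

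Other IkB and feedback genes rose in 10 of 16 cases, fell in 2 and did not pass in 4, with a median of 0.31. Tnip1, a partner of the Tnfaip3 product, rose 1.33-fold to 78.3 ± 2.48 CPM with ONCM, against 58.7 ± 2.36 CPM with PBS. Zc3h12a, an RNase that degrades inflammatory transcripts, rose 1.92-fold, and Irak3, a brake on interleukin 1 and Toll-like receptor signalling, rose 1.64-fold. The remaining IkB genes, named after their values were seen, all rose less in fold than Nfkbia. Nfkbib rose 1.22-fold, Nfkbie 1.32-fold and Nfkbid, a nuclear IkB gene at 2.00 CPM with ONCM and 1.28 CPM with PBS, 1.56-fold. The Nfkbib call was lost on log2(TPM + 1). Against this direction, and also named after their values were seen, ran Cyld, a deubiquitinase that limits NF-kB signalling (log2 fold change -0.43, SE 0.05), and Itch, a ubiquitin ligase that works with the Tnfaip3 product (-0.36, SE 0.04), with edgeR adjusted p-values of 8.6e-07 and 1.09e-07.

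Of 28 target genes 26 were tested, and 23 rose, 1 fell and 2 did not pass, with a median of 0.98. The chemokine genes Cxcl1 and Cxcl10 and the complement gene C3 had the smallest p-values and rose 3.78-fold, 3.49-fold and 3.99-fold. Cxcl10 had 171.8, 170.1 and 187.8 CPM with ONCM, against 48.3, 51.6 and 51.8 CPM with PBS. Cxcl10 is also known as a target of interferon signalling. The target that fell, named after its value was seen, was the survival gene Bcl2l1, at -0.11 (edgeR SE 0.04, adjusted p = 0.0249). Its call was lost in 5 of 15 other settings, among them those without ONCM replicate 1 (-0.08), without ONCM replicate 2 (-0.11) and without PBS replicate 3 (-0.10).

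**Figure D4:**
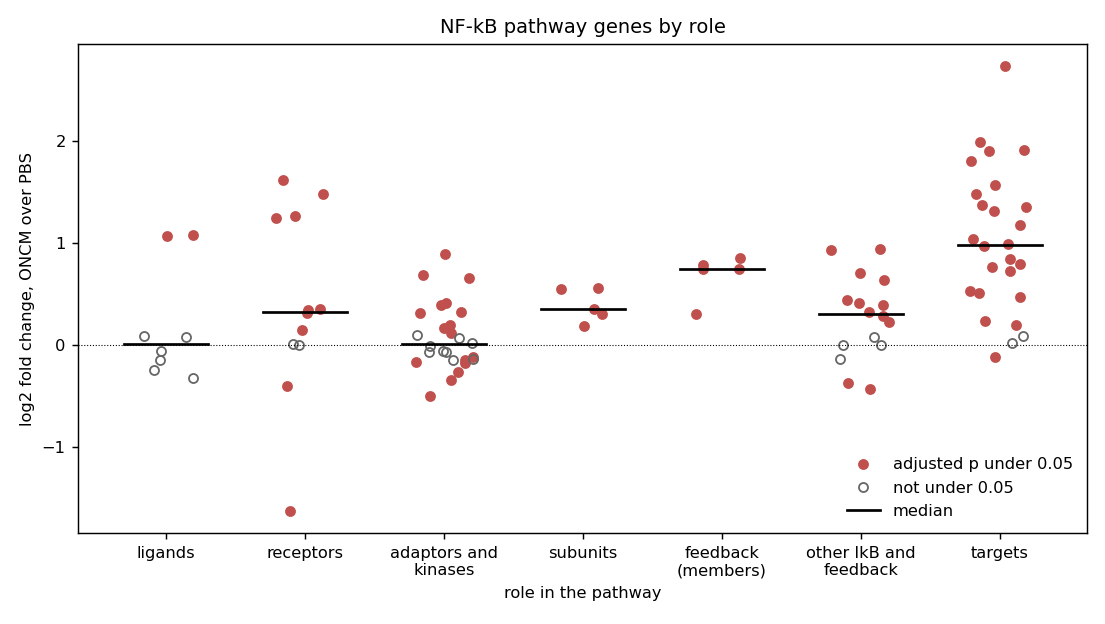
log2 fold change (ONCM over PBS) of tested NF-kB pathway genes by role; filled points passed at an adjusted p under 0.05, open points did not, and bars are medians. The medians are near 0 for ligands (0.02) and for adaptors and kinases (0.01), 0.35 for the subunits, 0.75 for the feedback members and 0.98 for the targets.

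Markers of other cells were read beside these lists. Over all tested genes 23.9% rose, 24.4% fell, and 28.0% had every ONCM library below every PBS library. The satellite glia and lymphocyte lists, with 25.0% raised in each, stood near the share of all genes. Fibroblast markers rose in 6 of 8 cases (500.0 to 519.9 CPM summed with ONCM, 356.1 to 360.5 CPM with PBS), and endothelial markers in 5 of 8 (201.7 to 210.3 CPM with ONCM, 168.8 to 171.5 CPM with PBS). Schwann cell markers rose in 6 of 10, with 1 lowered (4028 to 4170 CPM with ONCM, 3833 to 3906 CPM with PBS), and satellite glia markers rose in 2 of 8, with 1 lowered (2061 to 2243 CPM with ONCM, 2033 to 2106 CPM with PBS). Neutrophil markers rose in 3 of 6 tested, at 5.26 to 5.43 CPM summed with ONCM and 2.38 to 3.06 CPM with PBS. Those that rose, named after their values were seen, were Ly6g (13.7-fold), Cxcr2 (2.92-fold) and Csf3r (2.29-fold). Ly6g stood at 1.76 to 1.97 CPM with ONCM and 0.0928 to 0.190 CPM with PBS. The other tested ones did not pass, among them S100a8 and S100a9, named after their values were seen. Those genes had log2 fold changes of -0.72 and -0.62 (edgeR adjusted p = 0.0700 and 0.0620), and every ONCM library lay below every PBS library. The granule genes Elane and Mpo, also named after their values were seen, were at 0 in all libraries. Lymphocyte markers rose in 1 of 4 tested, at 2.29 to 3.33 CPM with ONCM and 1.97 to 2.55 CPM with PBS. Their part in the members' values was not tested.

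Likeness between members was measured as the root-mean-square difference of log2 CPM over the 6 libraries, each gene centred on its own mean. Nfkb1 and Nfkb2 were each other's nearest member (0.06), as were Nfkbiz with Tnfaip3 (0.06) and Rela with Relb (0.07). Nfkbia lay nearest to Tnfaip3, Bcl3 to Nfkbia, Birc3 to Relb and Rel to Birc3. Outside the lists, the genes nearest to the mean profile of the members were Srxn1, Daglb, Fam53c, Ebp and Riok3, at 0.0092 to 0.0155, with log2 fold changes of 0.52 to 0.57. Of 15115 candidate genes 600 lay within 0.1 of that profile.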

How the data were processed

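RNA was sequenced from 6 libraries, 3 with ONCM and 3 with PBS. Raw read counts per gene were used as the authors deposited them. TPM values deposited by the authors served for levels between genes and as an alternative scale, and no FPKM value of the authors entered any result. Columns were matched to samples by the codes in the labels. The submitters' processing notes name mm10. No source at hand states the aligner, counter, annotation or strandedness, so overlapping genes may share reads. Coordinates are from RefSeq GRCm38.p6 and overlaps from GENCODE on mm10.

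The main test was edgeR 4.0.16 under R 4.3.3 (filterByExpr, TMM, robust quasi-likelihood F-test, no covariate), adjusted by Benjamini-Hochberg over all 20354 tested genes. SE is the log2 fold change over the square root of F. Alternatives used DESeq2 1.42.0, limma 3.58.1 on log2(TPM + 1) and log2(TPM + 0.1), other filters and scalings, a replicate block and leaving out each library. Within groups, the chi-square per degree of freedom between libraries was 2.76 to 7.09, so no pair agreed within sampling noise. Counting error is the only error that depth bounds here.

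The members and lists were chosen with earlier results of these data known. Named genes are all members, the 3 with the smallest p in each other NF-kB list, Xist, Ddx3y and, for likeness, the 5 nearest genes with at least 1 CPM on average. Others are marked as named after their values were seen.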

Additional observations from a re-analysis of the deposited data

How the results depend on the processing

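All 10 members passed with edgeR under every filter, scaling, left-out library and the block, and with DESeq2. With limma on log2(TPM + 1) and on log2(TPM + 0.1) 7 passed each, and the lost calls were Rela (0.12 and 0.12), Relb (0.23 and 0.23) and Birc3 (0.23 and 0.23). On log2(TPM + 1) 34.9% of all tested genes passed, 13.3% higher. The median log2 fold change over all tested genes was -0.072 there, against -0.0021 with edgeR. The cause of the lost calls was not tested. Adaptor and kinase genes that passed numbered 9 and 9 on the TPM scales, against 17 in the main test. The count over all genes ran from 7104 (log2(TPM + 1)) to 9838 (library totals only), against 9829. Without ONCM replicate 3 the Rel share difference turned to 0.0595 percentage points, and over the 6 left-out libraries it ran from -0.279 to 0.0595. Differences near 0 changed sign for Ikbkb (0.00037 with DESeq2, 0.0080 with a mean of at least 1 CPM, 0.00057 without ONCM replicate 1, 0.015 without PBS replicate 3, against -0.026 as the lowest with a library left out, without PBS replicate 1) and Psd (0.037 without ONCM replicate 1, against -0.11 as the lowest with a library left out, without ONCM replicate 2). Same-numbered libraries did not deviate together (correlations -0.045 to 0.0017 across genes), so the labels' numbers are not known to pair samples. With the replicate block 9597 genes passed and Tnfrsf13c did not (log2 fold change -1.71, edgeR adjusted p = 0.0508), and no library correlated best with its own number. Depth limits low genes such as Tnfrsf13c, with 0 to 15 counts per ONCM library and 21 to 35 per PBS library.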

Other observations

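The kappaB consensus was also read across all tested genes with a start-site window. Of 912 genes with a match 27.5% rose and 25.4% fell with ONCM, and of 13919 genes with a window and no match 24.3% rose and 26.1% fell. The median log2 fold changes were 0.00040 with a match and -0.012 without one. These are descriptions of windows of 300 bases, with no test of the difference.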
